A study of Mus musculus with 10 samples.

Results

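The collagen chain genes of mouse spinal cord were examined in 10 RNA sequencing libraries. Members were the rows whose Entrez Gene identifier has a symbol of the form Col, number, a, number and nothing else, such as Col1a1 or Col10a1, and there were 44 of them among 26301 identifiers. All libraries came from spinal cord of C57BL/6 mice, an inbred strain, with no treatment or genotype named. At 4 weeks of age there were 2 male and 2 female libraries, and at 8 weeks 3 male and 3 female libraries. No label ties a replicate number to an animal of its own. The p-values therefore cover the spread between the libraries at hand, part of which may be technical.

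Collagens are matrix proteins whose chains wind around each other as a triple helix, which needs a glycine at each turn of the repeat. Fibrillar collagens form the fibrils of bone, skin, tendon, vessel walls and the meninges, and FACIT collagens (fibril-associated collagens with interrupted triple helices) bind to the surface of those fibrils. Type IV collagens form the network of basement membranes, which in the cord lie around blood vessels and under the pia. Neural tissue itself holds little fibrillar collagen, and in and around the cord it is known from meningeal and perivascular fibroblasts, nerve roots and the vertebral bone outside. Other types include the beaded filaments of type VI, the short-chain networks of types VIII and X, and chains that span the cell membrane.

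Libraries held between 8453559 and 11594610 counts, and the collagen genes took 808 to 2313 CPM of these totals. Levels are given as CPM after TMM scaling unless said otherwise. Cord markers were present in all 10 libraries, with 2 of 13 lower and 2 higher at 8 weeks, and the 13 genes of that list (such as Mbp, Slc6a5, Chat and Hoxc8) summing to 54954 to 60214 CPM at 4 weeks and 37626 to 44665 at 8 weeks. Markers of other tissues differed between libraries. The 5 adrenal cortex genes, all called lower at 8 weeks, summed to 122 and 91.2 CPM in male 4-week libraries 1 and 2 and to at most 11.03 elsewhere. The 6 lung epithelium genes, 1 of them called higher, summed to 799.9 and 92.4 CPM in male 8-week libraries 2 and 3 and to at most 8.42 elsewhere. The 12 skeletal muscle genes reached 2014 CPM in male 4-week library 1, and lay at 511 to 703 in the other 4-week libraries and at 39.5 to 153 in the 8-week libraries.

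The glycine repeat can be read in the coding sequence as a codon that starts with GG at every turn of 3 codons. The stretches here open the longest unbroken run of such units in 4 chains with large age differences, with the on-phase glycine codons in capitals (72 bases each, 5′ to 3′, transcripts of GENCODE M21 on GRCm38).
Col1a1 codons 168 to 191: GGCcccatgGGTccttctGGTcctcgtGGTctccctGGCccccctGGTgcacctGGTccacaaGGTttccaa
Col1a2 codons 97 to 120: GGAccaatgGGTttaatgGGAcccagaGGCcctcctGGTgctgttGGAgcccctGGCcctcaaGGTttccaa
Col3a1 codons 164 to 187: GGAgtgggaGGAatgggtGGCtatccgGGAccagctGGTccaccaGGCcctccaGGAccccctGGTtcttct
Col10a1 codons 302 to 325: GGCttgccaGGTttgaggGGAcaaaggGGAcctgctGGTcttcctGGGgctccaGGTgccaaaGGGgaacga
For the basement membrane chains Col4a1 and Col4a2 the stretches were taken instead at the end of the longest run, where the capitals in the phase of the run break off. The last capitals in each open the next block, in another phase. The ends of the runs in the 4 chains above are not shown. Col10a1 is broken into blocks too, and its longest run of 60 units is shorter than the 66 of Col4a2.
Col4a1 codons 151 to 174: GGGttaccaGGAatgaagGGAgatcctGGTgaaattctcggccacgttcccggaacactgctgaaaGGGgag
Col4a2 codons 963 to 986: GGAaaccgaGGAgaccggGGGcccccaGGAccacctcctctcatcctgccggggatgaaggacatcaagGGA

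With a block defined as at least 5 units in a row, the 11 fibrillar chains had 2 or 3 blocks and a longest run of 216 to 344 units. The shortest of these belonged to Col24a1 (216) and Col27a1 (217), and the other 9 reached 337 or more. The 6 type IV chains were broken into 22 to 27 blocks, with a longest run of 39 to 66 units. FACIT chains ranged from 32 units (Col12a1, Col14a1 and Col20a1) to 113 (Col9a1, Col9a2, Col9a3 and Col22a1). Short-chain collagens had 59 or 60 units and 9 blocks.

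**Figure D1:**
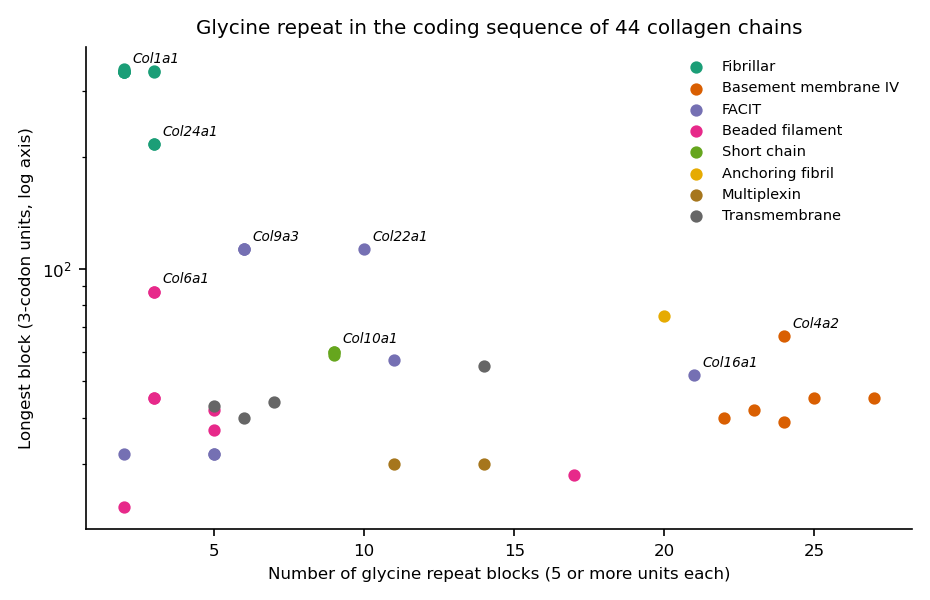
Number of glycine repeat blocks (x axis) and length of the longest block in 3-codon units (y axis, log scale) for the 44 collagen chains, 1 point each, coloured by type. Fibrillar chains sit at 2 or 3 blocks and 216 to 344 units, and type IV chains at 22 to 27 blocks and 39 to 66 units.

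At 8 weeks 15 of the 41 collagen chains tested were lower in these cord libraries than at 4 weeks, and no chain was called higher. The 15 were 8 of 11 fibrillar chains, 3 of 9 FACIT chains (Col9a1, Col9a3 and Col22a1), 3 of 6 tested beaded filament chains (Col6a1, Col6a2 and Col6a3) and the short-chain collagen Col10a1. Col1a1 fell 5.36-fold and Col1a2 4.29-fold, while none of 6 type IV, 3 transmembrane, 2 multiplexin or 1 anchoring fibril chains passed. Over all 15540 genes tested in this comparison, 5.01% were called lower and 1.61% higher at a Benjamini-Hochberg adjusted p under 0.05 in the quasi-likelihood test of edgeR. Every 8-week library lay below every 4-week library for 14 of the 41 chains, as it did for 4.84% of all tested genes, and for 0 chains the 8-week libraries all lay above (2.89% of all). The median log2 fold change of the 41 was −0.33, against 0.01 over all tested genes, and 33 of the 41 values were below 0. The cord is a mixture of cells, and from such libraries fewer cells of a type and less RNA per cell cannot be told apart. Several marker lists of other tissues were lower at 8 weeks too. All 12 skeletal muscle genes, 8 of 8 marrow genes, 6 of 6 fat cell genes and 7 of 15 tested cartilage and bone genes were called lower. Of 6 lung epithelium genes 0 were called lower and 1 higher, and of 8 Schwann cell genes 1 was called lower. With the 2 libraries of lung transcripts left out (male 8-week 2 and 3), 10 of the 15 calls were made, and with the 2 of adrenal transcripts left out (male 4-week 1 and 2), also 10. Leaving out each library in turn gave 13 to 16.

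**Figure D2:**
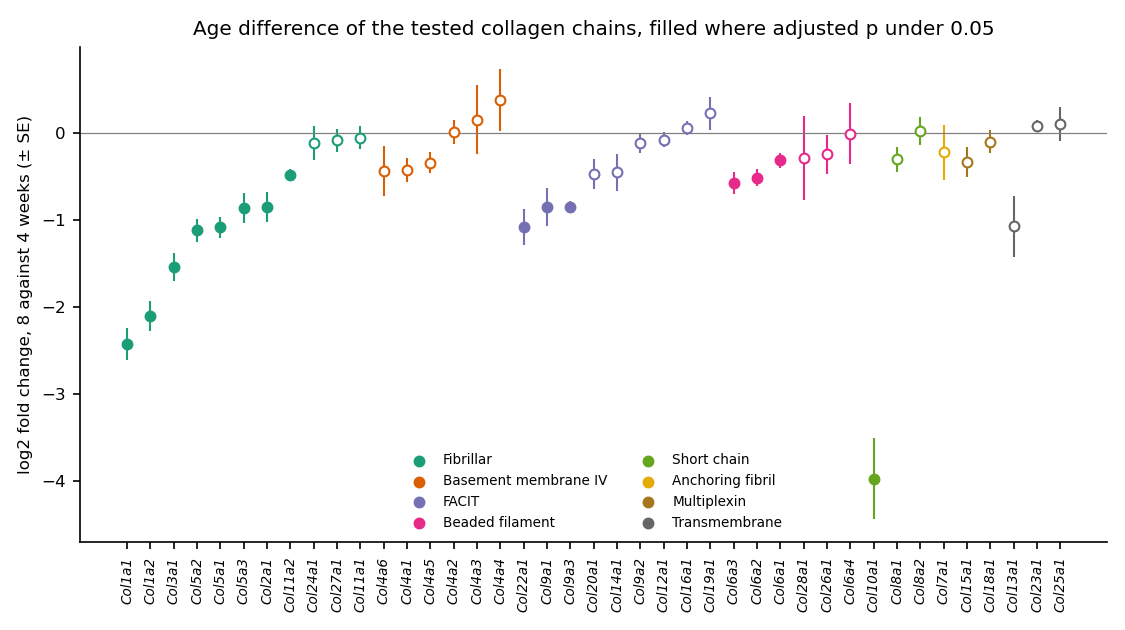
Log2 fold change of 8 against 4 weeks over both sexes (y axis) with its SE (bars) for the 41 tested collagen chains (x axis), grouped by type and filled where the edgeR adjusted p was under 0.05. The 15 filled points all lie below 0, from −3.98 for Col10a1 to −0.31 for Col6a1.

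The chains of type I collagen, the main fibril protein of bone, skin and tendon, had the highest counts of the 44 summed over the 10 libraries. At 8 weeks the mean of Col11a2, 83.2 CPM, was above that of Col1a1. Col1a1 (Entrez Gene 12842), its alpha 1 chain, stood at 457 and 211 CPM in male and 418 and 565 CPM in female 4-week libraries. At 8 weeks it stood at 92.5, 56.2 and 64.99 CPM in male and 78.4, 78.4 and 84.7 CPM in female 8-week libraries. All 8-week libraries were low, and among the 4-week libraries male 4-week library 2 was the lowest. Col1a1 fell by 2.42 on the log2 scale (SE 0.19, edgeR adjusted p = 3.73e-06), and the means were 413 ± 148 CPM (SD, n = 4) at 4 weeks and 75.9 ± 13.2 CPM (SD, n = 6) at 8 weeks. Its partner Col1a2 (Entrez Gene 12843), the alpha 2 chain, stood at 670.2 and 298 CPM in male and 504 and 637 CPM in female 4-week libraries, and at 150.4, 101 and 103 CPM in male and 121, 130.0 and 129.7 CPM in female 8-week libraries. The ages did not overlap, and male 4-week library 2 was again the lowest of its age. Col1a2 fell by 2.102 (SE 0.17, edgeR adjusted p = 7.30e-06). The means were 527 ± 169 CPM (SD, n = 4) at 4 weeks and 122 ± 18.6 CPM (SD, n = 6) at 8 weeks.

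Type III collagen is the fibril of vessels, reticular tissue and meninges, and its single chain Col3a1 (Entrez Gene 12825) stood at 241 and 129 CPM in male and 162 and 107 CPM in female 4-week libraries. The 8-week values were 75.1, 60.8 and 66.1 CPM in male and 46.6, 47.5 and 35.99 CPM in female 8-week libraries. Here the order among 4-week libraries differed from that of type I, with female 4-week library 2 the lowest, while the ages again did not overlap. Col3a1 fell by 1.54 (SE 0.16, edgeR adjusted p = 3.87e-05). The 4-week mean was 159.9 ± 58.4 CPM (SD, n = 4) and the 8-week mean 55.3 ± 14.5 CPM (SD, n = 6).

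Type V chains, which start and set the width of type I fibrils, were all lower at 8 weeks. Col5a1 stood at 28.3 and 20.2 CPM in male and 21.9 and 19.5 CPM in female 4-week libraries, and between 8.16 and 11.7 CPM in the 8-week libraries, with a median of 10.8. Col5a2 stood at 52.2 and 31.1 CPM in male and 38.1 and 39.7 CPM in female 4-week libraries, and between 16.3 and 22.9 CPM in the 8-week libraries, with a median of 17.6. Both groups of values were free of overlap, and male 4-week library 1 was the highest for each chain. Col5a1 fell by 1.08 (SE 0.12, edgeR adjusted p = 1.08e-04) and Col5a2 fell by 1.12 (SE 0.13, edgeR adjusted p = 1.80e-04). Col5a3, the alpha 3 chain, stood at 25.6 and 23.6 CPM in male and 19.5 and 20.1 CPM in female 4-week libraries, and between 7.70 and 17.8 CPM in the 8-week libraries, with a median of 11.8. It fell by 0.86 (SE 0.17, edgeR adjusted p = 0.00755), and male 8-week library 3 came closest to the 4-week values. Without both male 4-week libraries the edgeR adjusted p of Col5a3 was 0.149.

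Of the cartilage fibril chains, Col2a1, which forms type II collagen, stood at 11.6 and 8.02 CPM in male and 8.53 and 7.30 CPM in female 4-week libraries, and between 3.82 and 6.66 CPM in the 8-week libraries, with a median of 4.54. It fell by 0.85 (SE 0.17, edgeR adjusted p = 0.00791), and its call ended without male 8-week libraries 2 and 3 (edgeR adjusted p = 0.0634) or without both male 4-week libraries (0.187). Col11a2, a type XI chain, stood at 134 and 107 CPM in male and 107 and 118 CPM in female 4-week libraries, and between 78.6 and 88.2 CPM in the 8-week libraries, with a median of 83.2. It fell by 0.48 (SE 0.07, edgeR adjusted p = 6.46e-04), with no overlap of the ages and a narrow range at 8 weeks. Its type XI partner Col11a1 was at 64.2 ± 6.82 CPM (SD, n = 4) and 61.9 ± 12.6 CPM (SD, n = 6), a change of −0.05 (SE 0.13, edgeR adjusted p = 0.864). The remaining fibrillar chains, Col24a1 and Col27a1, stood apart in coding sequence by their shorter runs and had changes of −0.11 (SE 0.20, edgeR adjusted p = 0.801) and −0.08 (SE 0.14, edgeR adjusted p = 0.785). In all 3 of these uncalled chains the ages overlapped.

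**Figure D3:**
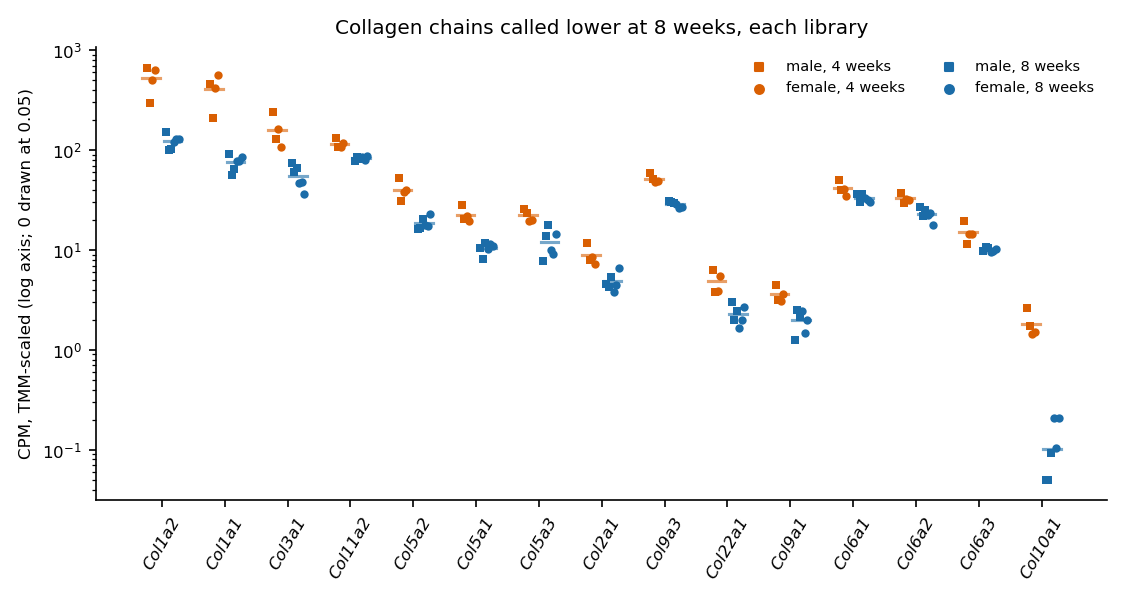
TMM-scaled CPM (y axis, log scale, 0 drawn at 0.05) of the 15 collagen chains called lower at 8 weeks, in each library, with male libraries as squares, female as circles and a line at the mean of each age. The 8-week points lie below every 4-week point for each chain except Col6a1, and Col1a1 spans 211 to 565 CPM at 4 weeks and 56.2 to 92.5 at 8 weeks.

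Among FACIT chains, Col9a3 had the lowest p of all collagens. It is a chain of type IX collagen, which coats type II fibrils, and stood at 58.5 and 51.6 CPM in male and 48.4 and 49.00 CPM in female 4-week libraries. At 8 weeks it lay between 26.4 and 30.7 CPM in the 8-week libraries, with a median of 29.2. Both ages were tight and did not overlap, and Col9a3 fell by 0.85 (SE 0.06, edgeR adjusted p = 2.52e-06). Col9a1, another type IX chain, was far less abundant, at 4.50 and 3.14 CPM in male and 3.12 and 3.60 CPM in female 4-week libraries, and between 1.25 and 2.54 CPM in the 8-week libraries, with a median of 2.06. It fell by 0.85 (SE 0.22, edgeR adjusted p = 0.0332), but the call held without male 4-week library 2, male 8-week library 2 or female 8-week library 1 and was lost without any other single library, at edgeR adjusted p values of 0.0543 to 0.123. It was also lost without male 8-week libraries 2 and 3 (0.0657) and without both male 4-week libraries (0.280). The remaining type IX chain, Col9a2, was at 15.9 ± 3.19 CPM (SD, n = 4) and 14.5 ± 2.17 CPM (SD, n = 6), with a change of −0.12 (SE 0.11, edgeR adjusted p = 0.595). Col22a1, known from tissue junctions such as those of muscle and tendon, stood at 6.34 and 3.83 CPM in male and 3.84 and 5.50 CPM in female 4-week libraries, and between 1.65 and 3.02 CPM in the 8-week libraries, with a median of 2.21. It fell by 1.08 (SE 0.21, edgeR adjusted p = 0.00601), and its adjusted p was 0.0559 without male 8-week libraries 2 and 3 and 0.0553 without both male 4-week libraries.

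The other 5 FACIT chains did not pass. Col16a1, the most abundant of these, was at 48.05 ± 5.29 CPM (SD, n = 4) and 49.9 ± 4.66 CPM (SD, n = 6), a change of 0.06 (SE 0.08, edgeR adjusted p = 0.746). Col12a1, a long chain of dense connective tissue, was at 31.2 ± 4.16 CPM (SD, n = 4) and 29.5 ± 2.22 CPM (SD, n = 6), a change of −0.08 (SE 0.09, edgeR adjusted p = 0.668). Col14a1 had −0.45 (SE 0.21, edgeR adjusted p = 0.244), Col20a1 −0.47 (SE 0.18, edgeR adjusted p = 0.132) and Col19a1 0.23 (SE 0.19, edgeR adjusted p = 0.533).

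The 3 common chains of type VI collagen, which forms beaded filaments around cells, were lower by smaller amounts. Col6a3 stood at 19.7 and 11.5 CPM in male and 14.5 and 14.6 CPM in female 4-week libraries, and between 9.50 and 10.7 CPM in the 8-week libraries, with a median of 10.01. Col6a2 stood at 37.6 and 29.5 CPM in male and 32.3 and 32.00 CPM in female 4-week libraries, and between 17.8 and 27.2 CPM in the 8-week libraries, with a median of 23.02. Neither chain had an overlap of the ages, and male 4-week library 1 was the highest for both. Col6a3 fell by 0.57 (SE 0.13, edgeR adjusted p = 0.0133) and Col6a2 fell by 0.51 (SE 0.10, edgeR adjusted p = 0.00604), and the call of Col6a3 ended at adjusted p = 0.0698 without male 8-week libraries 2 and 3. Col6a1 stood at 50.05 and 39.8 CPM in male and 40.6 and 35.1 CPM in female 4-week libraries, and between 30.5 and 36.7 CPM in the 8-week libraries, with a median of 32.7, so that the ages overlapped. It fell by 0.31 (SE 0.08, edgeR adjusted p = 0.0421). Leaving out any library except male 4-week library 2 or female 4-week library 2 ended the call of Col6a1, at edgeR adjusted p values of 0.0615 to 0.162. It was also 0.207 without male 8-week libraries 2 and 3 and 0.305 without both male 4-week libraries. The rarer chain Col6a4 had 3 to 22 counts a library and a change of −0.00495 (SE 0.35, edgeR adjusted p = 0.996). Col6a5 and Col6a6, with 61 and 64 counts over all libraries, did not pass the filter for low counts. Of the related chains, Col26a1 had −0.24 (SE 0.22, edgeR adjusted p = 0.579), and Col28a1, with 2 to 25 counts a library, −0.29 (SE 0.49, edgeR adjusted p = 0.791).

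Col10a1 is the collagen of hypertrophic cartilage, the zone of a growth plate that bone replaces. It was close to absent at 8 weeks, with counts of 23 and 20 in male and 12 and 15 in female 4-week libraries, against 0, 0 and 1 in male and 2, 1 and 2 in female 8-week libraries. That is 70 counts against 6, and the ratio of CPM of total counts was 17.5 (exact 95% interval 7.65 to 49.3, for counting error only). In males the ratio was 62.2 (interval 10.6 to 2512), and in females 8.42 (3.20 to 28.01). The fitted change was −3.98 (SE 0.47, edgeR adjusted p = 1.50e-04), a value that depends on the prior count of the fit at such low counts. The other short-chain genes make type VIII collagen of vessel walls and the eye. Col8a1 had a change of −0.30 (SE 0.14, edgeR adjusted p = 0.239) and Col8a2 one of 0.03 (SE 0.17, edgeR adjusted p = 0.953), both with overlapping ages.

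Type IV chains make up basement membranes, and 0 of 6 were called by edgeR or limma-voom, with 2 (Col4a1 and Col4a5) at an unadjusted p under 0.05. DESeq2 called Col4a1. Col4a1 and Col4a2 form the common network of vessels. Col4a1 stood at 55.6 and 52.7 CPM in male and 41.8 and 35.2 CPM in female 4-week libraries, and between 24.9 and 44.5 CPM in the 8-week libraries, with a median of 32.4. Col4a2 stood at 58.8 and 58.6 CPM in male and 47.5 and 42.9 CPM in female 4-week libraries, and between 36.2 and 63.03 CPM in the 8-week libraries, with a median of 54.01. The ages overlapped for both chains, and the changes were −0.43 (SE 0.14, edgeR adjusted p = 0.0860) for Col4a1 and 0.01 (SE 0.13, edgeR adjusted p = 0.968) for Col4a2. Col4a1 was also called without female 8-week library 3 and without a filter for low counts. The X-linked chain Col4a5 was at 15.3 ± 2.61 CPM (SD, n = 4) and 12.1 ± 1.88 CPM (SD, n = 6), a change of −0.34 (SE 0.12, edgeR adjusted p = 0.115). Col4a6, its X-linked neighbour, had −0.43 (SE 0.28, edgeR adjusted p = 0.417). Col4a3 and Col4a4, which join Col4a5 in the kidney filter, had 5 to 45 counts a library and changes of 0.16 (SE 0.40, edgeR adjusted p = 0.866) and 0.38 (SE 0.35, edgeR adjusted p = 0.586).

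The other chains had wide spreads or small changes. Col23a1, a membrane-spanning collagen, was at 44.5 ± 3.65 CPM (SD, n = 4) and 47.05 ± 2.33 CPM (SD, n = 6), a change of 0.08 (SE 0.07, edgeR adjusted p = 0.540). Col25a1, a membrane-spanning collagen of neurons, had 0.10 (SE 0.19, edgeR adjusted p = 0.813). Col13a1, found at muscle and nerve junctions, had 4 to 20 counts a library and a change of −1.07 (SE 0.35, edgeR adjusted p = 0.0909), and it was called without male 4-week library 2 or without male 8-week library 1. Col17a1, the hemidesmosome collagen of skin, had 15 counts in all and was not tested. Col15a1 and Col18a1, the multiplexins of vessel basement membranes, had −0.33 (SE 0.17, edgeR adjusted p = 0.301) and −0.10 (SE 0.13, edgeR adjusted p = 0.720), and Col7a1, the anchoring fibril chain of skin, had −0.22 (SE 0.32, edgeR adjusted p = 0.745).

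The make-up of the collagen transcripts differed between the ages. Fibrillar chains held 72.8% ± 5.96 of collagen CPM at 4 weeks (SD, n = 4) and 52.1% ± 2.30 at 8 weeks (SD, n = 6), and the ranges of 64.2% to 77.9% and 49.1% to 54.4% did not overlap. Col1a1, Col1a2 and Col3a1 together held 56.9% ± 8.55 at 4 weeks and 28.4% ± 3.66 at 8 weeks. The type IV share was 6.48% ± 2.11 at 4 weeks and 11.5% ± 1.81 at 8 weeks, while the summed type IV level was 118 ± 19.9 and 103 ± 19.1 CPM. Summed over all 44 genes the level was 1899.8 ± 357 CPM at 4 weeks and 895 ± 52.7 CPM at 8 weeks. These shares are descriptions with no test, and each is a share of the same total.

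**Figure D4:**
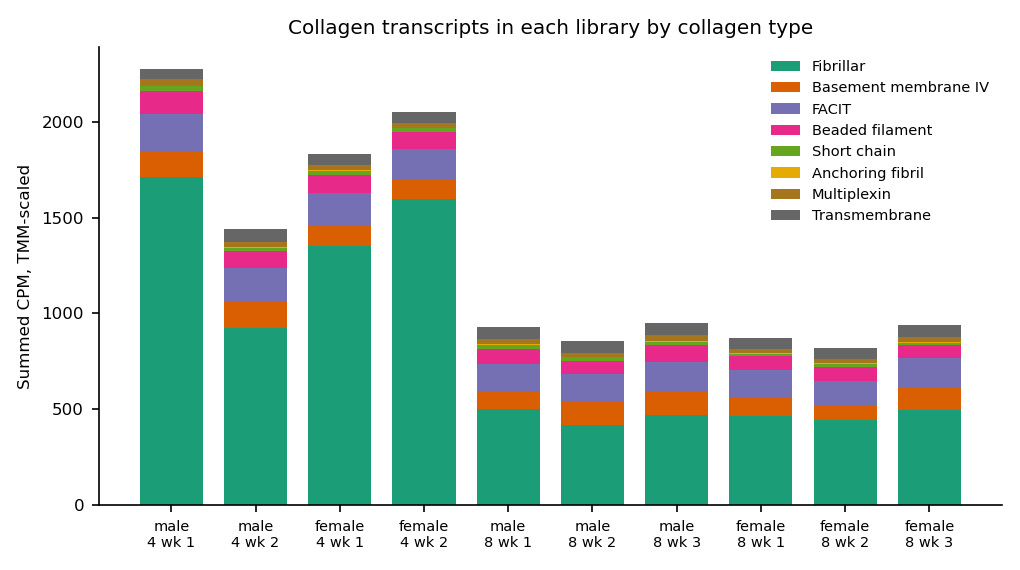
Summed TMM-scaled CPM (y axis) of the 44 collagen chains in each library (x axis), stacked by collagen type. The fibrillar part spans 924 to 1710 CPM at 4 weeks and 420.1 to 499 at 8 weeks, and the 4-week libraries differ more among themselves than the 8-week ones.

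Levels between chains were compared per kilobase of the GENCODE M21 transcript with the longest coding sequence, since the transcripts present are not known. At 4 weeks the order was Col1a2 at 98.6 ± 31.6 CPM per kilobase, Col1a1 at 69.6 ± 24.98, Col3a1 at 28.7 ± 10.5, Col11a2 at 21.6 ± 2.33 and Col9a3 at 17.03 ± 1.51 (SD, n = 4). The spreads of the first and the second overlapped between libraries, as did those of the third and the fourth. Within each 4-week library, though, Col1a1 had fewer counts than Col1a2 (ratio 0.682 to 0.887) on a longer transcript (5930 against 5348 bases). On this length Col1a2 was therefore above Col1a1 in every 4-week library. At 8 weeks Col1a2 led at 22.9 ± 3.48, followed by Col11a2 at 15.4 ± 0.743, Col1a1 at 12.8 ± 2.22, Col3a1 at 9.95 ± 2.60, Col16a1 at 9.59 ± 0.895 and Col9a3 at 9.45 ± 0.554 (SD, n = 6). Col11a2 and Col1a1 lay within their spread, as did Col1a1 and Col3a1, and also the last 3 of these. With the length of all annotated exons instead, Col1a1 led Col1a2 at 4 weeks (62.9 against 42.4 CPM per kilobase), and Col11a2 stood above Col3a1 (16.9 against 16.3). At 8 weeks that length put Col11a2 first at 12.1, before Col1a1 at 11.6 and Col1a2 at 9.86 CPM per kilobase. The order of the leading chains therefore rests on the length used at both ages.

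Chains were then set against each other in pairs, as a ratio of counts within a library, which does not depend on library scaling. Each pair is of 1 collagen type, except that Col3a1 to Col1a1 sets type III against type I. Within type IV, Col4a1 to Col4a5 sets chains of different networks against each other. Of 10 ratios, 9 had at least 20 counts of each chain in every library and were tested. The ratio of Col4a1 to Col4a2 was 0.945 and 0.900 in male and 0.881 and 0.821 in female 4-week libraries, against 0.558 to 0.713 over the 6 of the 8-week libraries. No library of either age reached the range of the other, and the mean difference of 8 against 4 weeks was −0.44 on the log2 scale (exact two-sided permutation p = 0.00476, adjusted p = 0.0214 over the 9 ratios). These genes start head to head, and their annotated starts in RefSeq overlap by 22 bases at chr8:11312805-11312826 of GRCm38.p6, which on the plus strand, the strand of Col4a2, read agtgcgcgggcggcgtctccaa. The GENCODE M21 transcripts of Col4a1 and Col4a2 used here are 6615 and 6450 bases long. That build differs from the mm9 of the counts. Since the strand setting of the counting is not given, how reads in the overlap were counted is not known, and their part in the ratio was not tested.

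The ratio of Col1a1 to Col1a2 was 0.682 and 0.708 in male and 0.829 and 0.887 in female 4-week libraries, against 0.557 to 0.653 over the 6 of the 8-week libraries. The ages did not overlap, and the difference was −0.32 on the log2 scale (exact two-sided permutation p = 0.00476, adjusted p = 0.0214 over the 9 ratios). The smallest p these 210 permutations can give is 0.00476, so both of these ratios lie at that limit. The ratio of Col6a1 to Col6a2 was 1.33 and 1.35 in male and 1.26 and 1.10 in female 4-week libraries, against 1.35 to 1.72 over the 6 of the 8-week libraries, a difference of 0.21 on the log2 scale (exact two-sided permutation p = 0.0143, adjusted p = 0.0429 over the 9 ratios). Its ages met at 1.35, where the highest 4-week library, male 4-week library 2, and the lowest 8-week library, female 8-week library 2, were equal to 3 digits. The other ratios did not pass after adjustment over all libraries, though without male 4-week library 2 those of Col11a1 to Col11a2 and Col6a3 to Col6a1 did, both at an adjusted exact p of 0.0429. Col11a1 to Col11a2 had a difference of 0.41 on the log2 scale (exact two-sided permutation p = 0.0381, adjusted p = 0.0857 over the 9 ratios), and Col3a1 to Col1a1 one of 0.87 on the log2 scale (exact two-sided permutation p = 0.0524, adjusted p = 0.0943 over the 9 ratios). The last was 0.52 without female 4-week library 2. Col5a1 to Col5a2 was 0.564 ± 0.0666 (SD, n = 4) at 4 weeks and 0.574 ± 0.0742 (SD, n = 6) at 8 weeks. The differences of Col6a3 to Col6a1, Col8a1 to Col8a2 and Col4a1 to Col4a5 were −0.25, −0.31 and −0.11, with adjusted exact p values of 0.0980, 0.0980 and 0.680. Leaving out any 4-week library other than male 4-week library 2 took the adjusted exact p of Col4a1 to Col4a2 and of Col1a1 to Col1a2 to 0.0536, while both remained at the smallest raw p of 3 against 6 libraries, with differences of −0.48 to −0.40 and −0.38 to −0.26 over all libraries left out in turn. That of Col6a1 to Col6a2 held without male 4-week library 2 or female 8-week library 2 or 3, and lay between 0.0714 and 0.214 without any other library.

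**Figure D5:**
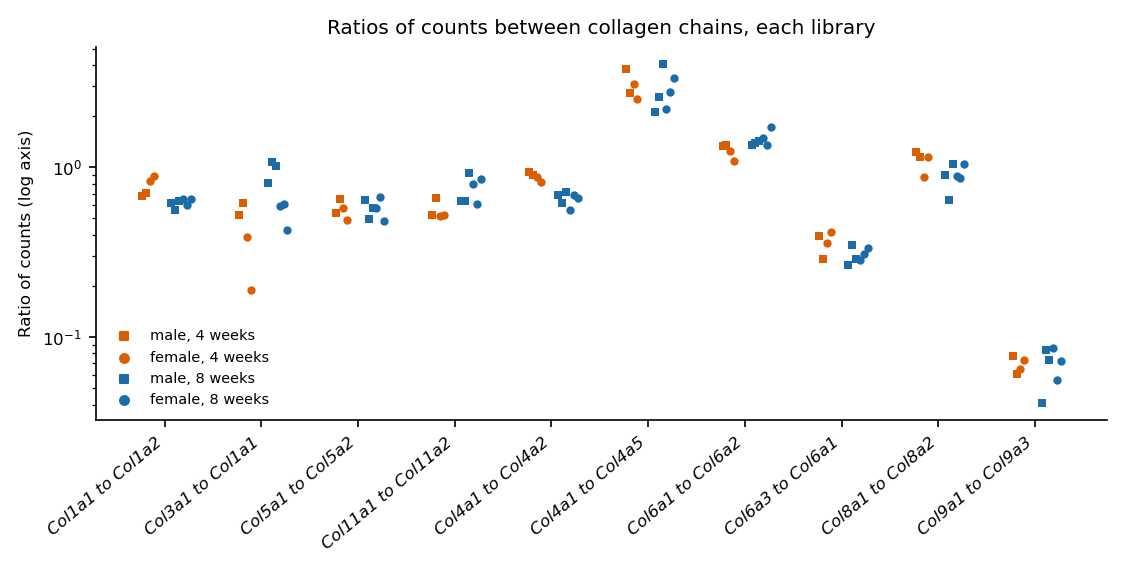
Ratio of counts between 2 collagen chains (y axis, log scale) in each library for 10 pairs (x axis), with 4-week libraries in orange, 8-week in blue, male as squares and female as circles. For Col4a1 to Col4a2 the 4-week points lie at 0.821 to 0.945 and the 8-week points at 0.558 to 0.713.

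All calls within a sex were also lower at 8 weeks. In males the high adrenal sums lay at 4 weeks (libraries 1 and 2) and the high lung sums at 8 weeks (libraries 2 and 3). The part of those transcripts in the male calls was not tested. In males 9 of the 41 chains were called lower at 8 weeks (2.39% of all tested genes) and 0 higher (0.837%), and in females 7 (1.22%) and 0 (0.238%). Col1a1, Col1a2, Col3a1, Col5a1, Col5a2, Col9a3 and Col10a1 were called in both sexes, and Col2a1 and Col11a2 in males. With DESeq2 Col10a1 was not called in females, and Col11a2 and Col6a2 were. Col1a1 fell by 2.23 in males (SE 0.27) and fell by 2.61 in females (SE 0.27), and Col9a3 fell by 0.87 in males (SE 0.09) and fell by 0.83 in females (SE 0.09). The age difference itself was not shown to differ between the sexes for any chain. The interaction called 0 of 41 in edgeR, with 2 (Col27a1 and Col10a1) at an unadjusted p under 0.05 and 0 in DESeq2, against 0.0129% of all tested genes in either direction. Without a female library the 7 calls in females became 3 or 4, namely 3 without female 4-week library 1 and 4 without any of the other 4. Col10a1, Col5a1 and Col5a2 were lost in each case and Col3a1 without female 4-week library 1, while 10 were called without either male 4-week library, since all groups share 1 estimate of spread. In males the 9 became 7 to 13, with 13 without male 4-week library 2. In males Col2a1 kept its call only without male 4-week library 2 or female 8-week library 3, and Col11a2 lost its call without male 4-week library 1 or male 8-week library 1.

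Between male and female libraries over both ages edgeR called 0 of 41 chains, with 7 at an unadjusted p under 0.05, and DESeq2 and limma-voom called 0. Of all tested genes 0.0901% were called in either direction. The high adrenal sums (male 4-week libraries 1 and 2) and high lung sums (male 8-week libraries 2 and 3) lay in male libraries only. The part of those transcripts in the sex differences was not tested. Col3a1 had the lowest p, at a male against female log2 difference of 0.56 (SE 0.16, edgeR adjusted p = 0.388), and was called without male 4-week library 2. The X-linked chains Col4a5 and Col4a6 had 0.23 (SE 0.12) and 0.60 (SE 0.28), both at edgeR adjusted p = 0.670. Col4a3 and Col4a4, on chromosome 1, had larger values of 0.98 (SE 0.39) and 0.72 (SE 0.34). Both were highest of all libraries in male 8-week library 2, the one with the highest lung sum, at 4.96 and 2.65 CPM. None of the 6 type IV chains had a value below 0, and neither did any of the 3 short-chain, 2 multiplexin or 1 anchoring fibril chains. Of all 41 chains 9 did, and the median of the 41 was 0.15.

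Collagen chains are hydroxylated, folded, exported, trimmed and crosslinked by a set of enzymes, and lists of these were compared by age. Beside the counts in these and the later lists, 5.01% of all tested genes were called lower and 1.61% higher. Among 15 hydroxylation and glycosylation genes 1 passed, the lysyl hydroxylase Plod1, which fell by 0.32 (SE 0.06, edgeR adjusted p = 0.00368). P4ha3, a prolyl hydroxylase subunit, had a change of 0.33 (SE 0.10, edgeR adjusted p = 0.0578). Of 7 tested chaperone and export genes Serpinh1, the collagen chaperone Hsp47, fell by 0.76 (SE 0.11, edgeR adjusted p = 5.93e-04), and Fkbp10, a prolyl isomerase, had −0.45 (SE 0.15, edgeR adjusted p = 0.0900). Of 13 tested genes of propeptide removal and crosslinking 3 fell and 1 rose. Bmp1, which removes the C-terminal propeptide, fell by 0.55 (SE 0.07, edgeR adjusted p = 2.63e-04), and Lox, a lysyl oxidase, fell by 1.10 (SE 0.22, edgeR adjusted p = 0.00765). The gene that rose was Pcolce2, an enhancer of that removal, by 0.73 (SE 0.16, edgeR adjusted p = 0.0112), named after its value was seen.

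Of the 10 genes of the collagen degradation list, which also holds the protease inhibitors Timp1, Timp2 and Timp3, 6 fell. The summed level of the list was 744 to 844 CPM at 4 weeks and 784 to 880 at 8 weeks. Ctsk, a protease of osteoclasts, fell by 1.59 (SE 0.16, edgeR adjusted p = 3.33e-05). Its level was 39.3 ± 11.4 CPM (SD, n = 4) at 4 weeks and 13.1 ± 1.52 CPM (SD, n = 6) at 8 weeks. Mmp13, a collagenase of bone, fell by 3.98 (SE 0.50, edgeR adjusted p = 2.39e-04). Of 9 tested small proteoglycans that bind fibrils 4 fell, among them Aspn, which fell by 2.89 (SE 0.24, edgeR adjusted p = 8.64e-06) and Lum, which fell by 1.33 (SE 0.26, edgeR adjusted p = 0.00576). Of 8 tested collagen receptors Itgb1, the shared integrin subunit, fell by 0.32 (SE 0.05, edgeR adjusted p = 0.00228) and Ddr1, a receptor kinase of oligodendrocytes and epithelia, fell by 0.22 (SE 0.06, edgeR adjusted p = 0.0252). The edgeR adjusted p of Itgb1 was 0.0518 without both male 4-week libraries. Ddr1 missed the threshold when female 4-week library 2, female 8-week library 1 or 3, or male 8-week library 3 was dropped, or male 8-week libraries 2 and 3 together, at edgeR adjusted p values of 0.0538 to 0.0981.

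Markers of cells that make collagen differed in how they moved beside these chains. The share over all tested genes was 5.01% called lower and 1.61% called higher. Of 16 meningeal and perivascular fibroblast genes 0 were called in edgeR, and their summed level was 268 to 415 CPM at 4 weeks and 224 to 500.3 at 8 weeks. Slc6a13, a transporter of those fibroblasts, had a change of −0.03 (edgeR adjusted p = 0.962). Of 15 tested cartilage and bone genes 7 fell, among them Ibsp, Bglap, Sp7 and Mmp13, which are known from bone-forming cells and growing bone, and of which Mmp13 is also a degradation gene above. The other 8 did not pass, namely the cartilage genes Acan, Matn3, Comp, Chad, Cnmd and Ucma and the bone genes Dmp1 and Alpl, which had changes of −0.00588 (edgeR adjusted p = 0.990) and −0.06 (edgeR adjusted p = 0.820). The list summed to 129 and 69.02 CPM in male 4-week libraries 1 and 2, 102 and 107 in female 4-week libraries 1 and 2, and 58.3 to 74.6 at 8 weeks, and none of its 20 genes was at 0 in every library. Male 4-week library 2, the lowest of its age for Col1a1 and Col1a2, was the lowest of its age for that sum and for the skeletal muscle and vascular smooth muscle sums. It was, though, the highest of its age for the fat cell sum, at 276 CPM. For the marrow sum it stood at 267 CPM, above female 4-week library 1 at 205. The highest bone sum was in male 4-week library 1, and the highest Col1a1 in female 4-week library 2. A link between these sums and the collagen levels was not tested. The 8 marrow genes summed to 205 to 572 CPM at 4 weeks and 115 to 199 at 8 weeks, and the 6 fat cell genes to 31.8 to 276 and 2.81 to 44.4 CPM. Of 12 endothelial genes 1 rose, with sums of 167 to 238 CPM at 4 weeks and 162 to 248 at 8 weeks. Of 9 pericyte genes 1 fell, of 5 tested vascular smooth muscle genes 1 (Des, which skeletal muscle also expresses), and of 8 Schwann cell genes 1. The vascular smooth muscle list summed to 23.97 to 53.4 CPM at 4 weeks and 14.5 to 21.4 at 8 weeks, without overlap, and the pericyte list to 131 to 189 and 134 to 213 CPM. The Schwann cell list had sums of 394 to 890.0 and 204 to 894 CPM.

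When a score of the cartilage and bone list, its mean centred log2 CPM, was added to the model of age as a covariate, 0 of the 15 chains stayed called. Col1a1 then stood at −1.62 (SE 0.46, edgeR adjusted p = 0.324), Col9a3 at −0.65 (SE 0.15), Col5a2 at −0.13 (SE 0.19) and Col11a2 at −0.06 (SE 0.13). With a skeletal muscle score in its place 0 of the 15 stayed called, and Col1a1 stood at −1.56 (SE 0.42, edgeR adjusted p = 0.0948). The median SE of the tested chains was 0.17 without a covariate, 0.40 with the first score and 0.33 with the second. The bone score lay at 0.158 to 1.10 in 4-week libraries and at −0.813 to −0.0668 in 8-week libraries, without overlap. The muscle score lay at 1.19 to 3.19 in 4-week libraries and at −2.37 to −0.625 in 8-week libraries, also without overlap. Neither score can therefore be told apart from the age.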

How the data were processed

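RNA from spinal cord was sequenced in 10 libraries of 4 groups by sex and age. The deposited values are raw read counts per Entrez Gene identifier. Per the submitters' processing notes, TopHat2 2.1.0, featureCounts and build mm9 were used. The counting options, strand setting and annotation version: not given in the sources used here. Symbols came from a RefSeq table of GRCm38.p6 (24191 of 26301 identifiers matched, and the rest held at most 0.956% of a library).

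The tests used edgeR 4.0.16 in R 4.3.3 with TMM scaling, filterByExpr (minimum count 10, minimum total 15, 15540 genes left) and the two-sided quasi-likelihood test with Benjamini-Hochberg adjustment at 0.05 over all tested genes. Age over both sexes and sex came from an additive model (7 residual degrees of freedom), the rest from a model of the 4 groups (6). The SE of a fold change was taken as its size divided by the square root of F. Chain ratios (pseudocount 0.5) used exact permutation. Simulated counts for the age comparison (15540 genes) gave 92 of 100 genes recovered at a log2 change of 1 and 96 of 100 at 2, with 10 false calls. Replicates differed by more than sampling noise (chi-square over degrees of freedom 1.98 to 11.9). Alternatives used DESeq2 1.42.0 and limma 3.58.1 (voom), other scalings and filters, a replicate block, covariates and libraries left out. All collagen chains are reported. From each list of pathway genes the 2 with the lowest p are named. The members and lists were chosen with earlier results of these data known.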

Additional observations from a re-analysis of the deposited data

Results flagged for a closer look

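In 3 of 82 sets of libraries checked (41 tested chains at each age), 1 library lay far from the others of its age by Dixon's test, and chance alone gives such a gap in about 1 of 20 sets. Col4a3 was at 4.96 CPM in male 8-week library 2, which also held lung transcripts, and at 0.936 to 1.78 in the other 8-week libraries. Col28a1 was at 2.34 CPM in male 8-week library 3, against 0.209 to 0.936 in the others of its age. Col16a1 was at 55.9 CPM in male 4-week library 1, against 44.6 to 46.1 in the other 4-week libraries. The part of other tissues in these values was not tested.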

How the results depend on the processing

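The 15 chains lower at 8 weeks were all called with other size factors (RLE), DESeq2, limma-voom, no filter for low counts and a filter of 1 CPM in 4 libraries. The 1028 genes called for age over both sexes became 474 without male 8-week libraries 2 and 3, 393 without both male 4-week libraries, 27 with the cartilage and bone score and 88 with the muscle score, and the 15 chains became 0 and 0 with those scores. The cause was not tested. The 226 genes called for age in females became 340 without a low count filter. The 14 called for sex became 35 with DESeq2, 60 without a filter and 38 with the replicate block. Leaving out each library gave 719 to 1473 genes for age over both sexes, 188 to 1199 in males, 62 to 394 in females, 1 to 2 for the interaction and 10 to 28 for sex, and 13 to 16 chains lower over both sexes, 7 to 13 in males, 3 to 10 in females and 0 to 1 higher for sex. Ratio differences then ranged, in log2, over −0.38 to −0.26 (Col1a1 to Col1a2), −0.48 to −0.40 (Col4a1 to Col4a2), 0.15 to 0.24 (Col6a1 to Col6a2), 0.34 to 0.49 (Col11a1 to Col11a2), −0.35 to −0.18 (Col6a3 to Col6a1), 0.52 to 1.08 (Col3a1 to Col1a1), −0.41 to −0.21 (Col8a1 to Col8a2), −0.22 to −0.00134 (Col4a1 to Col4a5) and −0.0408 to 0.0936 (Col5a1 to Col5a2). The replicate numbers did not pair the samples: 5 of 13 same-number pairs had a correlation of deviations over 0.1 (−0.21 to 0.24), and 2 of 10 libraries correlated best with their own number. With the replicate block 16 chains were lower for age, Col9a1 was lost, Col4a1 and Col15a1 were gained, and 11 were lower in males and 8 in females.

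Log2 fold changes that changed sign belonged to genes that were not called, except Col6a1, Col6a3, Col2a1 and Lum with a score. They were Col4a2 −0.14 and Col19a1 −0.0179 with the replicate block, Col4a2 −0.0114 with limma-voom, Col4a2 −0.0580, Col4a3 −0.36, Col6a4 0.0835 and Col8a2 −0.0400 without male 8-week libraries 2 and 3, and Col4a3 −0.45, Col6a4 0.29, Col12a1 0.0688, Col11a1 0.12, Col24a1 0.0599, Col27a1 0.21 and Col8a2 −0.23 without both male 4-week libraries. With the cartilage and bone score they were Col7a1 1.30, Col4a1 0.0979, Col4a3 −1.17, Col4a4 −1.02, Col26a1 1.02, Col28a1 0.52, Col6a1 0.0137, Col6a3 0.25, Col6a4 0.24, Col14a1 0.61, Col9a2 0.24, Col11a1 0.36, Col27a1 0.17, Col2a1 0.0269, Col15a1 0.0329, Col18a1 0.20, Col23a1 −0.0946 and Col25a1 −0.68. With the muscle score they were Col4a2 −0.61, Col4a3 −0.17, Col6a3 0.0363, Col19a1 −1.03, Col9a2 0.18, Col8a1 0.31, Col23a1 −0.0397, Col25a1 −0.90, Fkbp10 0.32 and Lum 0.40. Over the libraries left out in turn the ranges that crossed 0 were Col4a3 −0.28 to 0.34, Col25a1 −0.0461 to 0.32, Col6a4 −0.24 to 0.16, Col24a1 −0.22 to 0.0463, Col27a1 −0.17 to 0.0204, Col8a2 −0.12 to 0.12, Col7a1 −0.43 to 0.0141, Col4a2 −0.0827 to 0.0962, Col11a1 −0.13 to 0.0226 and Col28a1 −0.91 to 0.0131. At these depths 1 CPM is about 10 counts, so chains near that level, such as Col4a4, Col6a4 and Col28a1, are imprecise.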
